A study of Mus musculus with 15 samples.

Results

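Nfkbia, Gadd45b, Birc2, Btg2 and Pim2 are 5 genes of the feedback and survival arm of nuclear factor kB (NF-kB) signalling, and their levels are described here across mouse bone marrow-derived macrophages (BMDMs) in 4 culture conditions. The genes were selected by name from a panel of 754 genes, with earlier results of the same samples known, so their levels and differences are given as a description. No p-values are printed for them, and calls are only counted beside the share of all genes called. RNA was counted on the NanoString nCounter platform, in which a colour-coded probe binds each target RNA and bound probes are counted without amplification. BMDMs grown from femur marrow with M-CSF were cultured for 4 days with 20 ng/mL monophosphoryl lipid A, a Toll-like receptor 4 (TLR4) agonist (MPLA, 4 samples, M1-like standards), or with 20 ng/mL IL-4 (IL4, 4 samples, M2-like standards). Cells from the IL-4 condition were also exposed for 1 h to 1 µg of nanoparticles that carried IRF5 mRNA (IRF5-NP, 3 samples, numbers 1, 2 and 4) or mRNA of the reporter eGFP (eGFP-NP, 4 samples). All 4 groups shared the M-CSF culture, and both nanoparticle groups shared the exposure to IL-4 and to particles. According to its methods section, mRNA of the kinase IKKβ and some eGFP mRNA were packed with IRF5, and cells with strong transfection were sorted and then returned to IL-4 at a lower dose. The nanoparticle groups thus differed from the IL4 standards in the sort and in the later IL-4 dose as well as in the particles, and these cannot be told apart. Mouse strain, sex and age were not given in the sources used here.

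NF-kB is a family of transcription factors that inhibitor proteins hold in the cytoplasm of resting macrophages. When TLR4 senses lipid A, the IKK kinases mark these inhibitors for destruction, the dimers enter the nucleus, and cytokine genes are switched on together with genes that end the response or keep the cell alive through it. Nfkbia encodes IkBα, the inhibitor that NF-kB itself induces and that pulls the dimers back out of the nucleus. Gadd45b encodes a stress-induced protein that restrains JNK-driven cell death, and Birc2 encodes cIAP1, a ubiquitin ligase of the TNF receptor complexes. Btg2 encodes an antiproliferative partner of the mRNA deadenylases, and Pim2 encodes a serine/threonine kinase that is active without an upstream kinase and promotes survival.

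The promoters of the genes whose start regions held a match to a searched motif are printed first, since the 5 genes stood higher together in MPLA. The windows run from 250 bases before to 50 bases after the annotated start (RefSeq, GRCm38.p6, 300 bases each, written 5' to 3' on the strand of the gene), and capitals mark the match.

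Nfkbia, chr12:55492598-55492897, minus strand: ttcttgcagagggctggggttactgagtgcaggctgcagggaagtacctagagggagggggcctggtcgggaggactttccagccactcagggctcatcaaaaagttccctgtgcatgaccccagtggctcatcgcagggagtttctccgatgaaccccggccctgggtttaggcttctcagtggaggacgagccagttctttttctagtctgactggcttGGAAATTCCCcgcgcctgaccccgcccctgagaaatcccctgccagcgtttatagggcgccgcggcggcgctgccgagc
Birc2, chr9:7837008-7837307, minus strand: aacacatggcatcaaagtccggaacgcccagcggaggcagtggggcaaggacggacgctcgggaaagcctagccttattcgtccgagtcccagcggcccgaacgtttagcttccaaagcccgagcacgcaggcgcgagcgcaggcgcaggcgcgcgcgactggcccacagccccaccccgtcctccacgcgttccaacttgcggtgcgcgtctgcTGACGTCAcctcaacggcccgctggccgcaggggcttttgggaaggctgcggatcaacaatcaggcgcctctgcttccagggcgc
Btg2, chr1:134079106-134079405, minus strand: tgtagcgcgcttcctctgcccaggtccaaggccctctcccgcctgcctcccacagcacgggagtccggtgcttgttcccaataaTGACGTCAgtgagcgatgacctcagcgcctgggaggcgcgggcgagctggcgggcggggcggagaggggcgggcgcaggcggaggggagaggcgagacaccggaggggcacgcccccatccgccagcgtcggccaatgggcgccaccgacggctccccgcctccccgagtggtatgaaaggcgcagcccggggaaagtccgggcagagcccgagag

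Both strands of all 6 windows of the 5 genes were searched for the kB consensus, for the cyclic AMP response element TGACGTCA, whose reverse complement is the same sequence, and for the core of the interferon-stimulated response element (ISRE). The Nfkbia window held 1 kB match, GGAAATTCCC, which begins 29 bases before the start. The Birc2 and Btg2 windows each held 1 TGACGTCA, 35 and 166 bases before the start. The second Birc2 window, the Gadd45b window and the Pim2 window held none of the 3 motifs in these letters. Of 32851 mouse promoter windows of the same length, 8.46% held the kB consensus, 1.79% held TGACGTCA and 3.44% held the ISRE core. Of the 701 windows of panel genes, from which the 5 were drawn, 14.8%, 2.28% and 5.56% did. A match describes the letters of the window and was not tested as a binding site.

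Summed over genes, MPLA libraries held 1618914 to 1784833 counts, IL4 libraries 1087549 to 1639968, IRF5-NP libraries 266169 (number 4) to 1510011 and eGFP-NP libraries 738305 to 1524232. Within groups, 5 of 21 pairs of libraries were nearly identical: 1 with 4 and 2 with 3 in MPLA, 1 with 2 in IRF5-NP, and 1 with 2 and 3 with 4 in eGFP-NP. Libraries 1 and 2 of eGFP-NP did not differ detectably beyond sampling noise over genes whose counts summed to 40 or more, though they did over genes summing to 100 or more. They entered as 1 summed sample, so that eGFP-NP had n = 3 and the 4 groups 14 libraries. Levels are given as CPM, which are probe counts divided by the TMM-scaled size of their library. Macrophage markers were present throughout, with 10 to 12 of 13 above background in every library, and 2 to 6 of 12 granulocyte genes were above it. Fibroblast markers split the libraries: the mean of 7 fibroblast genes was 12.48 to 12.64 log2 CPM in MPLA and 10.06 to 11.87 in IL4 1, 2 and 4, but 4.65 in IL4 3. The same mean was 4.13 and 3.99 in IRF5-NP 1 and 2 against 10.92 in IRF5-NP 4, and 4.11 and 3.87 in eGFP-NP 1 and 2 against 11.50 and 11.57 in eGFP-NP 3 and 4. All 7 fibroblast genes were above background in the fibroblast-rich libraries and 0 or 1 of 7 in the others. In bulk RNA, fewer cells of a type and less RNA per cell cannot be told apart.

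All 5 genes were above background in every library. The closest to background was Pim2 in IRF5-NP 4, with 35 counts against a background of 32.4, and the same library held 47 counts of Btg2, 56 of Birc2, 95 of Gadd45b and 203 of Nfkbia. A probe of one gene is not set against a probe of another, since probes differ in how well they capture their target.

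Nfkbia, the NF-kB inhibitor with the kB match in its promoter, was highest in MPLA. The MPLA libraries 1 to 4 held 758, 616, 611 and 737 CPM, and the IL4 libraries 1 to 4 held 234, 451, 199 and 341 CPM. Every MPLA library lay above every IL4 library, and the nearly identical MPLA pairs 1 with 4 and 2 with 3 formed separate levels. IRF5-NP 1, 2 and 4 held 153, 144 and 441 CPM, and eGFP-NP 1 and 2 together, 3 and 4 held 185, 178 and 188 CPM. Means were 681 ± 77.8 in MPLA (SD, n = 4), 306 ± 114 in IL4 (n = 4), 246 ± 169 in IRF5-NP (n = 3) and 184 ± 5.42 in eGFP-NP (n = 3). The order MPLA, IL4, IRF5-NP, eGFP-NP had a gap only below MPLA, and the neighbours among the other groups overlapped. IRF5-NP 4 alone set the large spread of its group: it was the fibroblast-rich and shallowest library, and its Nfkbia level was close to that of IL4 2, the highest IL4 library.

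Gadd45b, the JNK-restraining stress gene, was also highest in MPLA, at 635, 591, 563 and 609 CPM. The IL4 libraries held 294, 315, 481 and 302 CPM, with the fibroblast-poor IL4 3 well above the other 3, which lay within a narrow band. Of the nanoparticle groups, IRF5-NP was the tightest, at 208, 199.9 and 206 CPM, and lay below every IL4 library. eGFP-NP split into 216 CPM for the fibroblast-poor libraries 1 and 2 together and 393 CPM in both fibroblast-rich libraries, 3 and 4. Means were 599.5 ± 30.4 in MPLA, 348 ± 89.0 in IL4, 334 ± 102 in eGFP-NP and 205 ± 4.16 in IRF5-NP. IL4 and eGFP-NP overlapped, while MPLA stood above both and IRF5-NP below both without overlap.

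Birc2, which encodes cIAP1, held 348, 317, 312 and 325 CPM in MPLA and 171, 197, 112 and 164 CPM in IL4. The groups did not overlap, and the lowest IL4 value was that of the fibroblast-poor IL4 3. IRF5-NP held 129, 113 and 122 CPM, and eGFP-NP held 165, 262 and 229 CPM, with the lowest of these in the fibroblast-poor libraries 1 and 2. Means were 325 ± 15.9 in MPLA, 219 ± 49.1 in eGFP-NP, 161 ± 35.5 in IL4 and 121 ± 7.83 in IRF5-NP. In that order, eGFP-NP and IL4 overlapped, as did IL4 and IRF5-NP, whereas IRF5-NP lay below every eGFP-NP library.

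Btg2, the antiproliferative gene, was the most even of the 5 within MPLA, at 405, 403, 437 and 423 CPM. It was uneven in the other groups: IL4 held 234, 140.4, 330.4 and 201 CPM, IRF5-NP held 176, 157 and 102 CPM, and eGFP-NP held 332, 183 and 222 CPM. In each of these groups the fibroblast-poor libraries (IL4 3, IRF5-NP 1 and 2, eGFP-NP 1 and 2) held the most Btg2, the reverse of Birc2 in IL4 and eGFP-NP. Means were 417 ± 16.1 in MPLA, 246 ± 77.6 in eGFP-NP, 226 ± 79.5 in IL4 and 145 ± 38.2 in IRF5-NP. MPLA stood above the rest, IL4 overlapped both nanoparticle groups, and IRF5-NP lay just below eGFP-NP, with 176 CPM at its top against 183 CPM at the bottom of eGFP-NP.

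Pim2, the survival kinase, held 265, 207, 200.1 and 255 CPM in MPLA, with the nearly identical pairs again at separate levels. IL4 held 69.6, 102, 63.8 and 80.7 CPM, and IRF5-NP held 79.5, 83.8 and 76.1 CPM, within the range of IL4. The eGFP-NP libraries, at 137, 165 and 165 CPM, filled the gap between IL4 and MPLA without touching either. Means were 232 ± 33.1 in MPLA, 156 ± 16.4 in eGFP-NP, 79.8 ± 3.88 in IRF5-NP and 79.1 ± 16.9 in IL4, so the lowest groups of Pim2 could not be ordered.

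**Figure D1:**
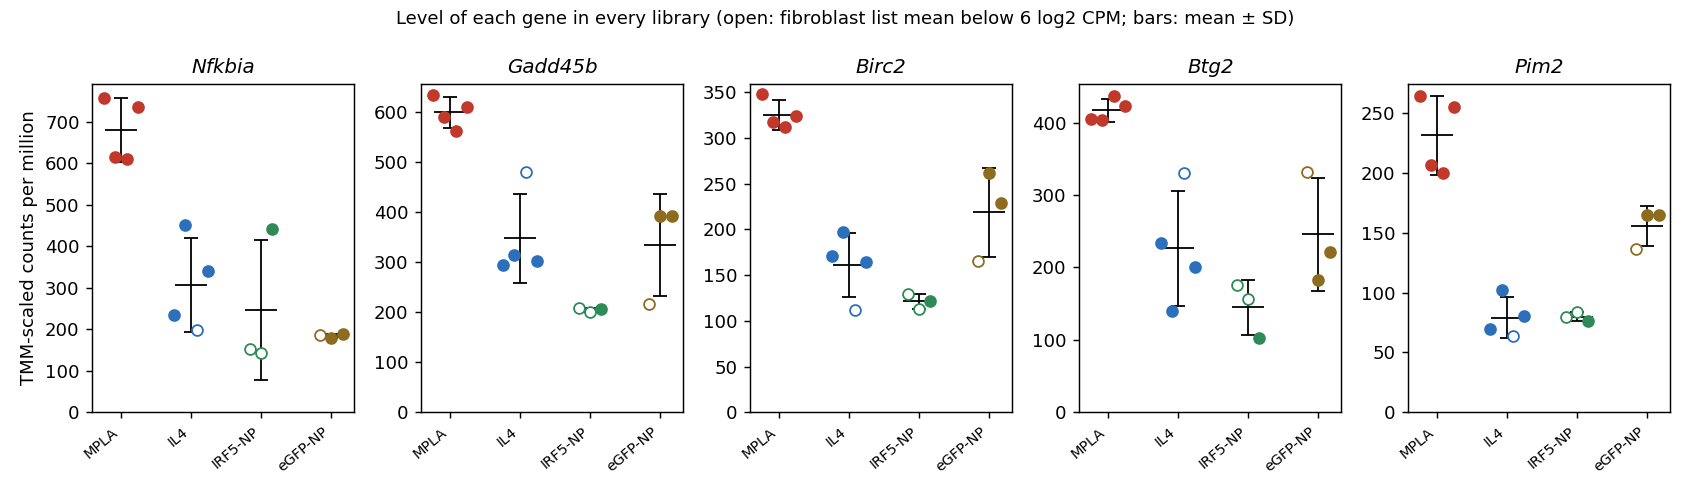
Each panel shows 1 gene, with its level in CPM (linear axis from 0) in every library of MPLA (n = 4), IL4 (n = 4), IRF5-NP (n = 3) and eGFP-NP (n = 3, libraries 1 and 2 summed); points are libraries, lines the group mean and bars its SD, and open points are libraries whose fibroblast list mean was below 6 log2 CPM. All MPLA points stand above the points of the other groups for the 5 genes, and Pim2 in eGFP-NP lies between MPLA and IL4.

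The comparison of MPLA with IL4 sets the M1-like against the M2-like standards. All 5 genes were higher in MPLA, by 1.57 ± 0.23 log2 for Pim2, 1.17 ± 0.29 for Nfkbia, 1.03 ± 0.22 for Birc2, 0.91 ± 0.26 for Btg2 and 0.81 ± 0.21 for Gadd45b (fitted log2 difference ± SE, n = 4 and 4). As ratios of group means these are 2.93-fold for Pim2, 2.22-fold for Nfkbia, 2.02-fold for Birc2, 1.84-fold for Btg2 and 1.72-fold for Gadd45b. The median of the 5 differences was 1.03, against -0.05 over all 754 genes. edgeR called all 5 higher in MPLA at a Benjamini-Hochberg adjusted p under 0.05, where 12.2% of the genes were called higher, and all 5 had every MPLA library above every IL4 library, where 22.1% of the genes did. The genes were chosen from results of this kind, so nothing is read from these counts. With housekeeping or median scaling the median of all genes moved by -0.28 or -0.54 log2 and only Pim2 remained called. None of the 5, and 20 genes in all, were called when nearly identical pairs were summed, against 199 in all without summing. Leaving out MPLA 1 or MPLA 4 left 1 of the 5 called, MPLA 2 or IL4 1 left 2, and MPLA 3 or IL4 4 left 3, with 74 to 209 genes called in all.

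Fibroblast marker levels moved with this comparison, since the list mean was 12.48 to 12.64 in MPLA and 4.65 to 11.87 in IL4. With that mean as a covariate, a setting chosen after the data were seen, the differences between MPLA and IL4 were 1.33 for Pim2, 0.78 for Nfkbia, 0.69 for Birc2, 1.34 for Btg2 and 1.12 for Gadd45b. All 5 stayed above 0, with Nfkbia, Birc2 and Pim2 smaller and Btg2 and Gadd45b larger than without the covariate, and Nfkbia was no longer called. The list means of MPLA and IL4 did not overlap, and the adjustment rests largely on IL4 3, at 4.65. These values therefore cannot separate the treatment from the fibroblast content.

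**Figure D2:**
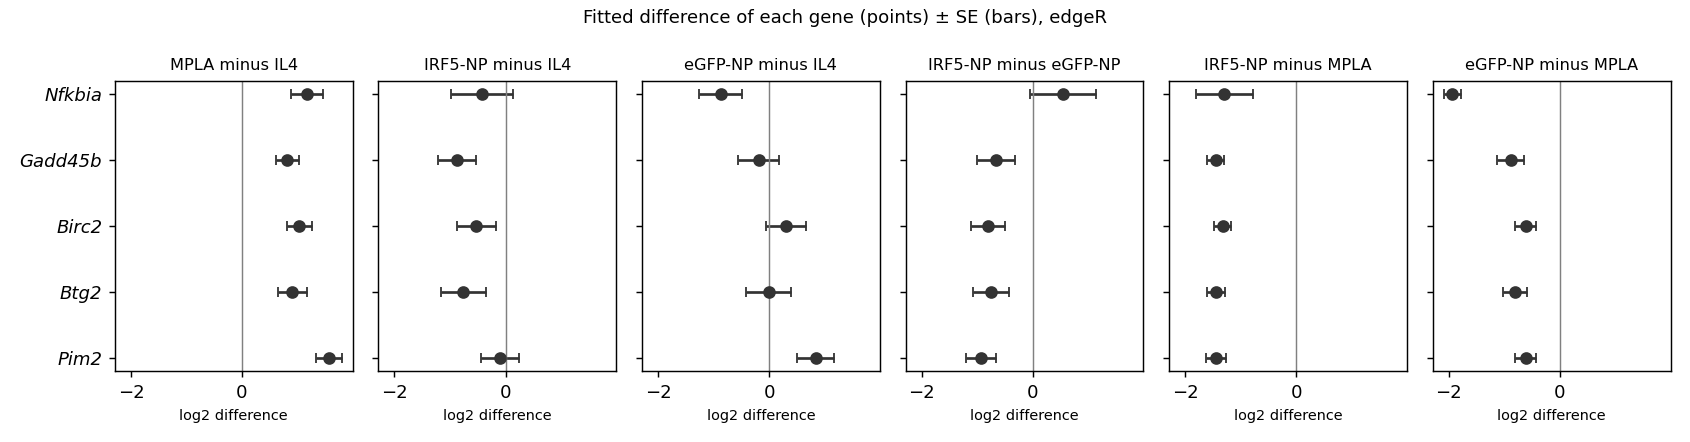
Fitted log2 difference of each gene (points) ± SE (bars) in the 6 comparisons, 1 panel each, with a line at 0 and the same axis throughout. All points lie above 0 for MPLA minus IL4, all lie below 0 for both nanoparticle groups minus MPLA, and only Nfkbia lies above 0 for IRF5-NP minus eGFP-NP.

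The comparisons of each nanoparticle group with IL4 ask how M2-like cells differ after the particles, and they share the 4 IL4 libraries. For IRF5-NP, the fitted differences from IL4 with TMM scaling were -0.42 ± 0.56 for Nfkbia, -0.87 ± 0.34 for Gadd45b, -0.52 ± 0.35 for Birc2, -0.76 ± 0.41 for Btg2 and -0.10 ± 0.34 for Pim2 (n = 3 and 4). With median scaling Nfkbia, Birc2 and Pim2 turned to 0.11, 0.11 and 0.53, and the CPM means of Pim2 in both groups were nearly equal, so only Gadd45b and Btg2 kept their direction under all 19 alternatives. Of the IRF5-NP libraries 2 of 3 were fibroblast-poor, against 1 of 4 in IL4, and with the fibroblast list mean as a covariate the differences were -0.024 for Nfkbia, -0.97 for Gadd45b, -0.30 for Birc2, -1.07 for Btg2 and 0.028 for Pim2. For eGFP-NP the fitted differences from IL4 were -0.88 ± 0.39 for Nfkbia, -0.19 ± 0.37 for Gadd45b, 0.30 ± 0.35 for Birc2, -0.01 ± 0.41 for Btg2 and 0.84 ± 0.33 for Pim2 (n = 3 and 4). Gadd45b was the only one of the 5 without overlap between IRF5-NP and IL4, where 8.75% of all genes did not overlap. Nfkbia, lower, and Pim2, higher, did not overlap between eGFP-NP and IL4, where 11.9% of all genes did not. edgeR called none of the 5 and none of the 754 genes in either comparison (0%). At an unadjusted p under 0.05 it passed 1 of the 5 and 53 genes in all for IRF5-NP, and 1 of the 5 and 84 in all for eGFP-NP. DESeq2 called 19 genes, none of the 5, for IRF5-NP and 56 genes, among them Pim2, for eGFP-NP, and limma called none in either. Without IRF5-NP 4 the Nfkbia difference from IL4 was -1.19.

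The comparison of IRF5-NP with eGFP-NP sets the active against the control particles. Here Gadd45b, Birc2, Btg2 and Pim2 were lower in IRF5-NP, by -0.66 ± 0.34, -0.81 ± 0.31, -0.75 ± 0.33 and -0.93 ± 0.27 log2 in that order, and Nfkbia differed by 0.54 ± 0.60 (n = 3 and 3). None of the 5 was called, nor was any of the 754 genes (0%). At an unadjusted p under 0.05, edgeR passed 2 of the 5 and 42 genes in all, DESeq2 called Pim2 and 5 other genes, and limma called none. Those 4 genes did not overlap between the groups, where 6.76% of all genes had every IRF5-NP library lower. The median of the 5 was -0.75, against 0.10 over all genes. IRF5-NP 1 and 2 and the summed eGFP-NP 1 and 2 were fibroblast-poor, so such samples made up a larger share of IRF5-NP. With the fibroblast list mean as a covariate the median of the 5 was -0.61, and 16 of the 754 genes were called, among them Btg2.

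The difference can also be read number by number, although the labels do not state such a pairing and the data do not settle it. For Btg2, IRF5-NP minus eGFP-NP was -0.96, -1.03 and -1.11 log2 CPM for numbers 1, 2 and 4, and for Pim2 it was -0.83, -0.63 and -1.10. For Birc2 it was -0.35, -0.53 and -0.90. These 3 genes were lower in IRF5-NP for every number, and Btg2 by the most even amount. Number 4 rests on low counts in IRF5-NP 4: 35 of Pim2, 47 of Btg2 and 56 of Birc2 against a background of 32.4. Gadd45b was lower by -0.92 for number 4 but only by -0.13 and -0.03 for numbers 1 and 2. Nfkbia was -0.24 and -0.39 for numbers 1 and 2 and 1.22 for number 4, so the sign of its group difference came from IRF5-NP 4, and without that library the difference was -0.35. Numbers 1 and 2 are nearly identical libraries in both groups and fibroblast-poor, and number 4 is fibroblast-rich in both.

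**Figure D3:**
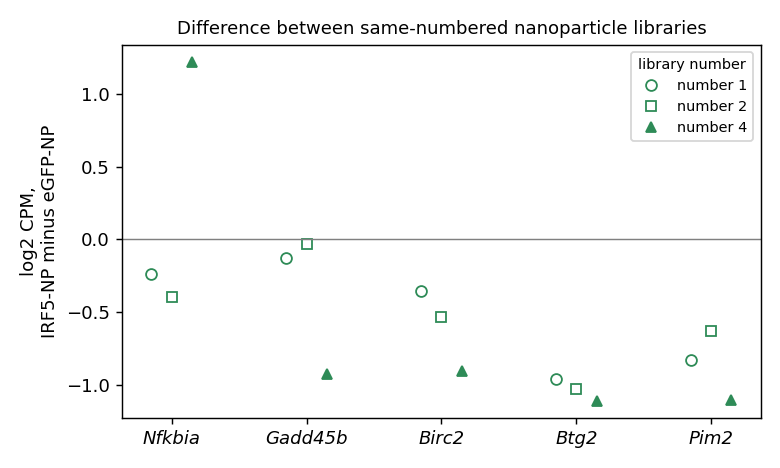
Difference in log2 CPM between the IRF5-NP and eGFP-NP libraries of the same number (1, 2 and 4) for each gene; open symbols are the fibroblast-poor numbers 1 and 2, filled triangles are number 4, and the line marks 0. Birc2, Btg2 and Pim2 lie below 0 for all 3 numbers, and Nfkbia for number 4 stands alone at 1.22.

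Against MPLA, the 5 genes were lower in both nanoparticle groups with TMM scaling, in comparisons that share the 4 MPLA libraries. For IRF5-NP the differences were -1.30 ± 0.51 for Nfkbia, -1.45 ± 0.15 for Gadd45b, -1.32 ± 0.15 for Birc2, -1.45 ± 0.16 for Btg2 and -1.44 ± 0.18 for Pim2 (n = 3 and 4). For eGFP-NP they were -1.93 ± 0.16 for Nfkbia, -0.89 ± 0.24 for Gadd45b, -0.62 ± 0.19 for Birc2, -0.81 ± 0.22 for Btg2 and -0.62 ± 0.18 for Pim2 (n = 3 and 4). In IRF5-NP, Gadd45b, Birc2, Btg2 and Pim2 were called lower, where 12.9% of all genes were, and Nfkbia was not called. In eGFP-NP, Nfkbia, Gadd45b and Btg2 were called lower, where 12.5% were. None of the 5 overlapped with MPLA in either group, where 30.5% of all genes had every IRF5-NP library lower and 23.6% every eGFP-NP library lower. For IRF5-NP, 0 of the 5 were called with nearly identical pairs summed and 1 with median scaling, and for eGFP-NP these counts were 0 and 1. With median scaling the median of the 5 differences was -0.51 for IRF5-NP and -0.05 for eGFP-NP, against -1.44 and -0.81 with TMM scaling. The median of all genes moved by 0.96 and 0.67 log2 in these fits. Without IRF5-NP 4 the Nfkbia difference between IRF5-NP and MPLA was -2.20 ± 0.13 and all 5 were called, as were 566 of the 754 genes in all. That fit leaves only the nearly identical IRF5-NP 1 and 2, so its SE and calls rest on a spread that may be technical. With the fibroblast list mean as a covariate the Nfkbia difference between IRF5-NP and MPLA was 0.11. This value rests on IRF5-NP 4, the only fibroblast-rich library of its group. Without eGFP-NP 1 and 2, all 5 were called lower in eGFP-NP than in MPLA and 428 genes were called in all, against 148 with these libraries. That fit leaves only the nearly identical eGFP-NP 3 and 4, so the same limit holds. Without eGFP-NP 3, eGFP-NP 4 or any single MPLA library, 1 of the 5 and 74 to 102 genes in all were called.

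Other genes of the same pathways were taken from lists of known members, and the counts are those of the comparison of MPLA with IL4. The labels do not say whether the samples of a group came from separate cultures or animals. A legend of the study calls its samples biologically independent, in a number that none of these groups has, and 5 pairs of libraries were nearly identical. The p-values measure the spread between these samples, which may be in part technical. Of 12 other NF-kB feedback genes, 6 were called higher and 1 lower (58.3%, against 26.4% of all genes), with a median of 0.84. Nfkbiz, an atypical IkB protein, ranged from 798 to 908 CPM in MPLA and from 35.2 to 414 CPM in IL4, a difference of 2.55 ± 0.74 (edgeR adjusted p = 0.0364). Outside MPLA, Nfkbiz moved with the fibroblast markers, at 27.6 to 52.4 CPM in the fibroblast-poor libraries and 64.4 to 414 CPM in the others. Dusp1, a MAP kinase phosphatase, ranged from 3930.1 to 5895 CPM and from 1144 to 1702 CPM, a difference of 1.86 ± 0.26 (adjusted p = 0.00222). Both genes were higher in every MPLA library, as was Tnfaip3, which encodes the ubiquitin-editing NF-kB inhibitor A20. Tnfaip3 ranged from 389 to 449.7 CPM in MPLA and from 107 to 216 CPM in IL4, a difference of 1.497 ± 0.26 (adjusted p = 0.00657). The lower gene was Socs1, a suppressor of JAK-STAT signalling, with 178 to 196 CPM in MPLA and 379 to 1355 CPM in IL4 (-2.01 ± 0.39, adjusted p = 0.00918). The feedback genes were thus not all higher in MPLA.

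Of 14 other survival and death genes, only Ripk2, a kinase downstream of NOD receptors, was called, at 367 to 464 CPM in MPLA against 166 to 289 CPM in IL4 (0.92 ± 0.23, edgeR adjusted p = 0.0225), and the list had a median of 0.20. The share called was 7.14% in this list, against 26.4% of all genes. Birc3, the close paralog of Birc2 and named here after its values were seen, held 401, 338, 325 and 357 CPM in MPLA and 200.1, 354, 346 and 295 CPM in IL4. These groups overlapped, and the difference was 0.28 ± 0.22 (edgeR adjusted p = 0.372), or -0.026 with housekeeping and -0.32 with median scaling, so its direction is not settled. Whether the Birc2 and Birc3 differences differ from each other was not tested.

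Of 9 genes that carry the TLR4 signal, 2 were called higher and 1 lower (33.3%, near the 26.4% of all genes), with a median of 0.28. Cd14, which hands lipid A to the receptor, ranged from 4712 to 6786 CPM in MPLA and from 719 to 1428 CPM in IL4 (2.53 ± 0.28, edgeR adjusted p = 0.000702). Traf2, the adaptor that recruits cIAP1, ranged from 639 to 714 CPM and from 335 to 523 CPM (0.72 ± 0.21, edgeR adjusted p = 0.0392). Tlr4 itself was lower, at 689 to 823 CPM in MPLA and 1016 to 1485 CPM in IL4 (-0.68 ± 0.19, edgeR adjusted p = 0.0349). Outside MPLA, Tlr4 moved with the fibroblast markers, at 1318 to 1549 CPM in the fibroblast-poor libraries and 428 to 1233 CPM in the fibroblast-rich ones. The part of this in its difference between MPLA and IL4 was not tested.

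Of 29 inflammatory outputs of NF-kB, 8 were called higher and 2 lower (34.5%, against 26.4% of all genes), with a median of 0.76. The largest increases among those called were in the scavenger receptor Marco (5.74 ± 0.34, edgeR adjusted p = 6.67e-05) and the neutrophil chemokines Cxcl2 (4.28 ± 0.30, edgeR adjusted p = 7.83e-05) and Cxcl1 (3.98 ± 0.75, edgeR adjusted p = 0.00817). Marco was above background in only 1 of 4 IL4 libraries, Cxcl2 in 2 and Cxcl1 in 3, so these sizes rest in part on background counts. Cxcl1 also moved with the fibroblast markers: outside MPLA it held 144 to 911 CPM in the fibroblast-rich libraries and 11.1 to 23.8 CPM in the others. With the fibroblast list mean as a covariate its difference between MPLA and IL4 was 2.75. Cd83, an activation marker, was lower in MPLA, at 235 to 289 CPM against 692 to 1033 CPM (-1.68 ± 0.20, edgeR adjusted p = 0.00107). Il23a was called lower as well (edgeR adjusted p = 0.0138), but it was above background in 0 of 4 MPLA and 2 of 4 IL4 libraries, so its difference was not measured on both sides. Over all 754 genes, 92 were called higher and 107 lower, and the median was -0.05. None of the genes named from these lists for being called changed direction under the alternatives run. Nfkbiz, Ripk2, Traf2 and Tlr4 were called in 7, 9, 8 and 10 of 20 alternatives, and Cd14 in 19, Marco and Cxcl2 in all 20. In the comparisons of IRF5-NP or eGFP-NP with IL4 and with each other, none of the genes of the 4 lists was called, as for the 754 genes.

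**Figure D4:**
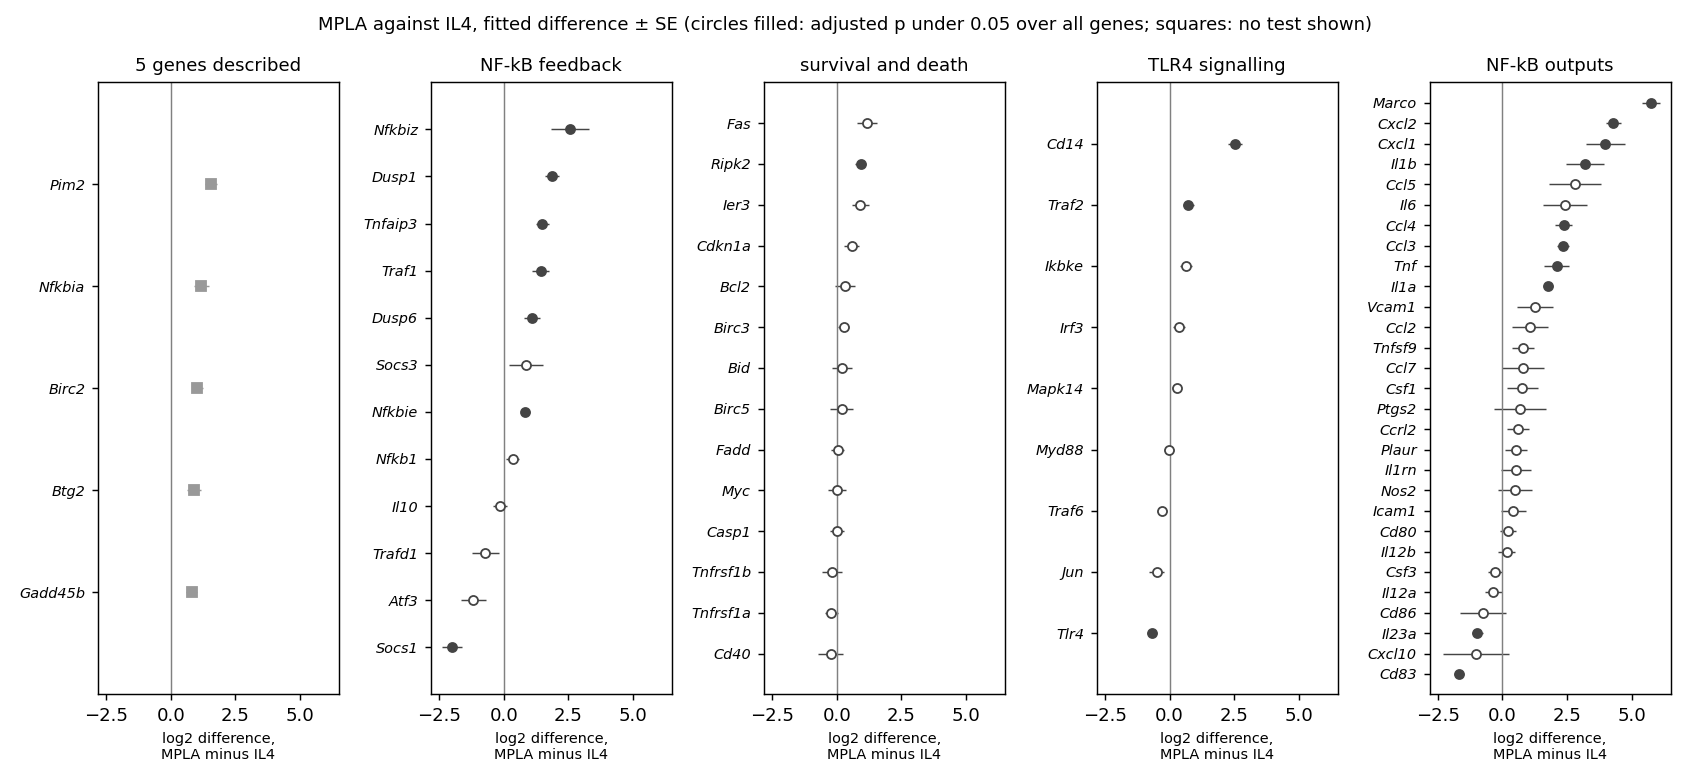
Log2 difference between MPLA and IL4 (points) ± SE (bars) for the 5 genes described (squares, no test shown) and for the NF-kB feedback, survival and death, TLR4 signalling and NF-kB output lists, sorted within each panel; filled circles had an edgeR adjusted p under 0.05 over all genes. The 5 squares lie between 0.81 and 1.57, within the range of the feedback list, which runs from -2.01 for Socs1 to 2.55 for Nfkbiz.

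Across the 14 libraries, the log2 levels of the 5 genes correlated with each other to different degrees, from r = 0.93 for Birc2 with Pim2 down to 0.44 for Nfkbia with Btg2. The libraries share groups, fibroblast content and nearly identical pairs, so these values are a description. Among 544 genes above background in enough libraries, those most like Nfkbia were the cytokine signalling suppressor Socs3 (r = 0.90), the chemokine Cxcl1 (0.90) and the adaptor Traf1 (0.90). Most like Gadd45b were Dusp1 (0.88), Traf2 (0.87) and the hypoxia factor Hif1a (0.80). Dusp1 was also among those most like Birc2 (0.93) and Pim2 (0.90), beside Lrp5 (0.92) for Birc2 and Ripk2 (0.92) for Pim2. Btg2 had the least similar neighbours, the collagenase Mmp13 (0.83), the transcription factor Batf (0.79) and the lipid kinase Sphk1 (0.76).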

How the data were processed

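The authors deposited raw whole-number nCounter counts for 768 probes (754 genes, 6 positive and 8 negative controls) in 15 samples. The methods name a quality check, scaling to housekeeping genes, a log2 step and t-tests adjusted by Benjamini-Yekutieli, none of which shows in these counts. Groups and replicate numbers came from the labels, and lane and cartridge were not given in the sources used here. All 5 genes and 744 of the 754 gene names matched current symbols of GRCm38.p6, 9 matched a synonym and 1 neither. The labels and the methods state different nanoparticle amounts, and the amount given here is that of the labels.

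The 5 genes and all lists were chosen with earlier results of these data known. The quasi-likelihood test of edgeR (4.0.16, in R 4.3.3) was fitted to the counts of both groups of a comparison, scaled by TMM and unfiltered. A gene was called where its two-sided p, adjusted by Benjamini-Hochberg over 754 genes, was under 0.05. The SE was taken from the F statistic and the log2 difference. Levels are CPM with TMM scaling, and log2 CPM used a prior count of 2. Background was the mean of the 8 negative controls of a library plus 2 SD. Pairs of replicates were set against each other in a chi-square test of their counts. The chi-square per degree of freedom was 1.09 to 2.56 in the nearly identical pairs and 41.4 to 1250 in the rest. It was lowest in eGFP-NP 1 and 2, which did not differ beyond sampling noise over genes whose counts summed to 10 or 40 or more, but did at 100. Depth limits precision most in IRF5-NP 4, at 266169 counts.

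Same-numbered IRF5-NP and eGFP-NP libraries deviated together (r = 0.80, 0.80 and 0.84 for numbers 1, 2 and 4, each the best partner among these numbers). The pairing was read from the data and is not stated in the labels. Numbers 1 and 2 are nearly identical within each group, so the values mostly describe the contrast of numbers 1 and 2 with number 4. eGFP-NP 3, nearly identical to eGFP-NP 4, was not among the candidates, so a pairing by number is not shown. In the other comparisons the numbers did not pair the libraries.

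Named genes were the 5 genes, the up to 3 genes with the largest increase and the up to 3 with the largest decrease among those called between MPLA and IL4 in each list, and the 3 genes most correlated with each of the 5, of which 1 is not reported here. The edgeR script was tested on simulated data. Alternatives were DESeq2 1.42.0, limma 3.58.1, other scalings, a filter on low counts, a fit of all 4 groups, nearly identical pairs summed, eGFP-NP 1 and 2 kept separate, a replicate block and leaving out each library. The fibroblast covariate, subtraction of the negative controls and the methods' t-test were chosen after seeing the data. Promoter sequences are from RefSeq; gene coordinates are otherwise not given, since the files name no build.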

Additional observations from a re-analysis of the deposited data

Results flagged for a closer look

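Gadd45b in IL4 3 was 8.91 log2 CPM and lay far above the other 3 IL4 libraries: its gap to the nearest of them was 0.865 of the range of the group, above Dixon's 95% critical value for 4 samples. IL4 3 was the fibroblast-poor library of its group, and the part of that in the Gadd45b level was not tested. Chance flags about 1 in 20 groups, and 10 groups of 4 libraries were looked at for the 5 genes.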

How the results depend on the processing

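Of 585 alternative values of the 30 differences of the 5 genes, 523 lay within 1 SD of the value given and 561 kept its sign. This SD is the pooled spread of log2 CPM between libraries within the groups compared, and is not an error of the difference. No called difference changed sign. All 5 genes stayed higher in MPLA than in IL4 under all 20 alternatives. The uncalled difference of Birc3 (0.28) was -0.026 with housekeeping and -0.32 with median scaling. Between MPLA and IL4, 5 of the 5 genes were called, but 1 with housekeeping scaling, 1 with median scaling, 3 in the fit of all 4 groups, 0 with nearly identical pairs summed, 1 with a replicate block, and 0 (Benjamini-Yekutieli) or 1 (Benjamini-Hochberg) by the methods' t-test, 4 with the fibroblast covariate, and 1 to 5 when a library was left out. The 7 calls among feedback genes became 3 with housekeeping scaling, 4 with median scaling, 0 with pairs summed, 4 with the fibroblast covariate, 0 or 2 by the methods' t-test and 3 to 9 when a library was left out. The 1 survival gene became 3 with DESeq2, 2 with limma or a filter on low counts, 0 with housekeeping scaling, median scaling, pairs summed, the replicate block, the fibroblast covariate or either form of the methods' t-test, and 0 to 2 when a library was left out. The 3 TLR4 genes became 6 with DESeq2, 1 with pairs summed, the replicate block, the fibroblast covariate or the methods' t-test with Benjamini-Yekutieli, and 1 to 5 when a library was left out (5 without IL4 2). The 10 outputs became 5 with pairs summed, 3 by the methods' t-test with Benjamini-Yekutieli, and 7 to 16 when a library was left out (16 without IL4 2). Over all genes the 199 calls became 291 with DESeq2, 255 with median scaling, 109 with the fibroblast covariate, 95 with the replicate block, 20 with pairs summed and 74 (without MPLA 1) to 295 (without IL4 2) when a library was left out, and the share of calls that were higher moved from 46.2% to 26.8% with housekeeping and 20.4% with median scaling.

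No alternative moved the count of 0 for IRF5-NP against IL4. For eGFP-NP against IL4, DESeq2 and the fit of all 4 groups called 1 (Pim2). For IRF5-NP against eGFP-NP, DESeq2 called 1 (Pim2) and the fibroblast covariate called 1 (Btg2), and the replicate block changed no call (0 of 5). For IRF5-NP against MPLA the 4 calls became 1 with median scaling, 0 with pairs summed, 0 with the replicate block, 2 by the methods' t-test with Benjamini-Yekutieli and 4 to 5 when a library was left out. For eGFP-NP against MPLA the 3 calls became 5 with DESeq2, housekeeping scaling, eGFP-NP 1 and 2 kept separate or the fibroblast covariate, 1 with median scaling, the fit of all 4 groups, the replicate block, the negative controls subtracted or the methods' t-test with Benjamini-Yekutieli, 0 with pairs summed and 1 to 5 when a library was left out. The share of calls that were higher in IRF5-NP than in MPLA was 47.3%, and 90.4% with median scaling; for eGFP-NP it was 36.5% and 83.1%. In the comparisons with MPLA or IL4 the numbers did not pair the libraries. The causes of these changes were not tested, except that summing pairs leaves fewer samples. Leaving out IRF5-NP 4, or eGFP-NP 1 and 2, leaves only nearly identical libraries in that group.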
